A study of Mus musculus with 12 samples.

Results

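The genes described here are 41 neighbours of Tet2 on mouse chromosome 3, followed across 12 RNA-Seq libraries of sorted bone marrow LSK cells (lineage-negative, Sca-1+, c-Kit+ hematopoietic stem and progenitor cells). They were chosen by name from the distal part of the chromosome, between Larp7 and Pdlim5, and each name matched 1 row of a table of 46517 genes. The window they span runs from 127536714 to 142395696 on chromosome 3 of mm10, or 14.9 Mb, and holds 260 genes of the table. Of the 41 members, 39 had enough reads to be tested, among 17842 tested genes in all. The study asked how loss of the acetyltransferase p300 acts together with loss of Tet2. The comparison made here is narrower: whether genes linked to the targeted Tet2 locus differed in the groups that carry the targeted allele.

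There were 3 libraries in each of 4 groups. By the methods of the study, animals of every group carried Ep300 fl/fl, those of p300KO and p300KO_Tet2KO carried Mx1-Cre as well, and those of Tet2KO and p300KO_Tet2KO were Tet2-/-, so that WT is Ep300 fl/fl alone, whereas the design text deposited with the data can be read as giving Mx1-Cre to every group. All animals had received poly(I:C), were 8 to 10 weeks old and were sampled 2 weeks after the injections. Mx1-Cre is switched on by interferon, so Ep300 is deleted in cells that respond to poly(I:C), including cells outside the blood. The Tet2 allele is a germline deletion present in every cell of the animal from the start. By the methods of the study, mice of both sexes were used and all shared the same C57BL background. The strain of embryonic stem cell the Tet2 allele was made in is not given in the sources used here. Nor is the number of crosses of that allele to the shared background.

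TET2 oxidizes 5-methylcytosine in DNA and is one of the genes most often mutated in human myeloid disease. A germline targeted allele is bred as a piece of chromosome, so alleles at nearby genes travel with it through crosses more often than alleles elsewhere. A targeting event can also act on neighbouring transcription units directly. Animals labelled Tet2 knockout differ from the others in the Tet2 allele and in whatever is inherited with it, so loss of the TET2 protein, a local action of the targeted locus and linked alleles cannot be told apart in these libraries. RNA from sorted cells was pooled in each library, so fewer cells expressing a gene and less RNA per cell cannot be told apart either.

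Levels are given as CPM, read counts expressed relative to the scaled library size. Library totals ran from 18773903 to 79573664 counts. The stem and progenitor markers Kit (724 to 1056 CPM) and Cd34 (706 to 881 CPM) were high, and Ly6a, which encodes Sca-1, stood at 14.7 to 32.8 CPM. Other markers of this kind were low or differed by group. Slamf1 stood at 1.31 to 4.43 CPM. Flt3 had means of 689 CPM in WT, 348 CPM in p300KO, 445 CPM in Tet2KO and 234 CPM in p300KO_Tet2KO. Genes of granulocyte and monocyte progenitors were also present and differed by group. Mpo had means of 1391 CPM in WT, 1799 CPM in p300KO, 2930 CPM in Tet2KO and 1851 CPM in p300KO_Tet2KO. Ly6g and Cd3e, markers of mature neutrophils and T cells, were at no more than 0.0553 CPM, and Cd8a at no more than 0.167 CPM. Other markers of mature myeloid, T and NK cells were not as scarce. Itgam stood at 33.8 to 64.9 CPM, S100a8 at 0.313 to 6.84 CPM, Nkg7 at 34.5 to 69.7 CPM and Cd4 at 3.48 to 8.59 CPM. Libraries differed in the sex of the animals: Xist was high in 1 of the 6 libraries without the Tet2 label and in 4 of the 6 with it, so sex ran in part with the compared label, and Tet2KO replicate 1 had both Xist (3279 CPM) and Y-linked transcripts (177 CPM). Library p300KO_Tet2KO replicate 2 stood apart in its mitochondrial share, 0.503% against 1.18% to 1.53% in the others. The members together took 2133 to 2343 CPM in the 6 Tet2-labelled libraries and 2410 to 2569 CPM in the 6 others.

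Tet2 itself was measured first. It stood at 136, 139 and 120 CPM in WT and at 56.6, 38.6 and 48.1 CPM in Tet2KO, a log2 fold change of -1.46 (adjusted p = 7.4e-04, edgeR quasi-likelihood test). It stood at 139, 181 and 168 CPM in p300KO and at 128, 101 and 145 CPM in the libraries labelled p300KO_Tet2KO, where the change was -0.38 (adjusted p = 0.421). Tet2 RNA was therefore higher in the libraries labelled p300KO_Tet2KO than in Tet2KO (log2 fold change 1.38, adjusted p = 5.71e-04), and the level of the targeted gene does not bear out the Tet2 label of that group. Which exons the reads cover was not examined here, since the table gives 1 value per gene. Ep300 followed its labels, at 285 to 340 CPM in WT, 176 to 233 CPM in p300KO, 313 to 350 CPM in Tet2KO and 166 to 179 CPM in p300KO_Tet2KO.

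The results turn on Cisd2 and Manba, 2 members that were lower in both Tet2-labelled groups, and on Mttp, which was higher in both. Their promoters are shown because the 3 genes did not overlap between Tet2-labelled and other libraries, whereas the other members did. The sequences are those of RefSeq on GRCm38.p6, from 250 bases before to 50 bases after the annotated start, on the strand of the gene. They lie at chr3:135423384-135423683 on the minus strand for Cisd2, chr3:135485361-135485660 on the plus strand for Manba and chr3:138143369-138143668 on the minus strand for Mttp. The stretches of Cisd2 and Mttp lie inside the Gencode gene bodies, which reach to 135423925 and 138144968. They therefore belong to RefSeq starts within those bodies, not to the outermost Gencode starts. Capitals mark the GC box GGGCGG and the CCAAT box CCAAT, each searched on both strands and with no overlap between them.
Cisd2: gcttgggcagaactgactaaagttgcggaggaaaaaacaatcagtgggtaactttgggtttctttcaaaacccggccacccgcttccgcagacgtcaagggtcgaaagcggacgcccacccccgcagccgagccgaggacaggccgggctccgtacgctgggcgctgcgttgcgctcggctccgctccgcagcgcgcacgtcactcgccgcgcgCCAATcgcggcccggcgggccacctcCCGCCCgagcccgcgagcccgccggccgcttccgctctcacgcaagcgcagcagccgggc
Manba: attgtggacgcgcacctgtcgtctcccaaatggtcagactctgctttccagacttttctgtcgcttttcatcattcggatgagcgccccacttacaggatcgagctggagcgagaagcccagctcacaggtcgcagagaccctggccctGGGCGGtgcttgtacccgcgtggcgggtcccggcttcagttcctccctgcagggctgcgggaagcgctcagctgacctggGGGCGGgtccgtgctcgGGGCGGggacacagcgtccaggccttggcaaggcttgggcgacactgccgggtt
Mttp: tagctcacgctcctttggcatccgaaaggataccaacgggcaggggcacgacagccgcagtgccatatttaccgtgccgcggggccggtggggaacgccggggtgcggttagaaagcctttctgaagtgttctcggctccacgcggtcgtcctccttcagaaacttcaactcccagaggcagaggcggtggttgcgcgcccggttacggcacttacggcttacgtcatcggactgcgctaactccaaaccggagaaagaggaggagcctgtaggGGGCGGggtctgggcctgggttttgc
The Cisd2 promoter held 1 GC box and 1 CCAAT box, that of Manba 3 GC boxes and no CCAAT box, and that of Mttp 1 GC box and no CCAAT box. All 3 were rich in CpG, with 42 such dinucleotides in Cisd2, 23 in Manba and 27 in Mttp against a median of 7 over 32851 RefSeq promoters of this length. This does not set them apart from the other members, which ranged widely. Tspan5 had 43, Metap1 39 and Ints12 30, none of them called in the Tet2 comparisons, whereas Bank1 had 3. A GC box occurred in 35.7% of those promoters and a CCAAT box in 37.4%. A GC box was found in 24 of the 35 members that have a promoter in the RefSeq table, these 3 included, and such matches describe the letters only.

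Cisd2 showed the same lower level in every Tet2-labelled library. It encodes an iron-sulphur protein of the endoplasmic reticulum and the outer mitochondrial membrane, and its loss in people causes a form of Wolfram syndrome. The gene (ENSMUSG00000028165.9, chr3:135406412-135423925) lies 1.86 Mb from Tet2. Its level was 74.3, 68.2 and 71.3 CPM in WT, 70.3, 74.2 and 68.3 CPM in p300KO, 40.8, 45.3 and 45.8 CPM in Tet2KO, and 40.2, 40.1 and 44.9 CPM in p300KO_Tet2KO. The highest Tet2-labelled library (45.8 CPM) was well below the lowest of the other libraries (68.2 CPM). Cisd2 fell by 38.3% in Tet2KO vs WT, with a log2 fold change of -0.70 ± 0.08 (SE; adjusted p = 0.00129). It fell by 41.2% in p300KO_Tet2KO vs p300KO (-0.77 ± 0.08; adjusted p = 5.43e-04). These comparisons share no library, and the difference between them was -0.07 ± 0.12 (adjusted p = 0.905). Deletion of p300 made a difference of -0.01 ± 0.08 to Cisd2 (p300KO vs WT, adjusted p = 0.984). Cisd2 thus stood at 44.0 ± 2.8 CPM in Tet2KO, where Tet2 RNA was low, and at 41.7 ± 2.8 CPM (SD, n = 3 each) in the libraries labelled p300KO_Tet2KO, where Tet2 RNA was not (difference -0.08 ± 0.08, adjusted p = 0.711). No other annotated gene had a transcript at least 95% identical to that of Cisd2 over 100 bases.

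Manba, the lysosomal beta-mannosidase that trims mannose from N-glycans during their breakdown, was lower in the same 6 libraries by a smaller margin. It lies 1.94 Mb from Tet2 (ENSMUSG00000028164.14, chr3:135485611-135571404), separated from Cisd2 by Ube2d3. Its level was 57.2, 57.1 and 56.3 CPM in WT, 66.9, 55.3 and 59.2 CPM in p300KO, 46.3, 41.7 and 43.1 CPM in Tet2KO, and 46.4, 43.6 and 43.1 CPM in p300KO_Tet2KO. All 6 Tet2-labelled libraries lay below the 6 others, with 46.4 CPM the highest of the former and 55.3 CPM the lowest of the latter. The log2 fold change was -0.38 ± 0.08 in Tet2KO vs WT (adjusted p = 0.0705) and -0.45 ± 0.09 in p300KO_Tet2KO vs p300KO (adjusted p = 0.038). The second call was lost when any 1 of its 6 libraries was left out (adjusted p up to 0.153). With both comparisons averaged in 1 test, Manba changed by -0.41 ± 0.06 (adjusted p = 0.00343), and this held without any 1 of the 12 libraries. No near-identical transcript of another gene was annotated, although the pseudogene Gm16100 lies inside Manba and reads from it cannot be told apart from those of Manba without strand. The tested pseudogene Oaz2-ps also lies inside Manba, on the other strand, and stood at only 0.193 to 1.00 CPM.

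Ube2d3, which lies between them, was not called. It encodes an abundant ubiquitin-conjugating enzyme and stood at 396 ± 3.4 CPM in WT, 411 ± 63 CPM in p300KO, 379 ± 33 CPM in Tet2KO and 316 ± 40 CPM in p300KO_Tet2KO (mean ± SD, n = 3 each). The change was -0.06 ± 0.12 in Tet2KO vs WT (adjusted p = 0.867) and -0.38 ± 0.12 in p300KO_Tet2KO vs p300KO (adjusted p = 0.271). Reads of Ube2d3 may be shared with 4 similar genes that reach 1 CPM, an antisense transcript at its start among them.

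Mttp was the member that was higher. It encodes the microsomal triglyceride transfer protein, which loads lipid onto apolipoprotein B in liver and intestine, and was at a low level in LSK cells. The gene (ENSMUSG00000028158.13, chr3:138089854-138144968) lies 4.54 Mb from Tet2. Its level was 5.02, 5.12 and 4.80 CPM in WT, 4.76, 5.24 and 4.98 CPM in p300KO, 9.71, 9.30 and 6.56 CPM in Tet2KO, and 7.36, 9.03 and 7.60 CPM in p300KO_Tet2KO. The lowest Tet2-labelled library (6.56 CPM) was above the highest of the others (5.24 CPM). Neither comparison alone passed the threshold, with log2 fold changes of 0.78 ± 0.17 in Tet2KO vs WT (adjusted p = 0.0705) and 0.68 ± 0.18 in p300KO_Tet2KO vs p300KO (adjusted p = 0.142), although DESeq2's Wald test called it in both. Averaged over both, the difference was 0.73 ± 0.12 (adjusted p = 0.00864), a 1.66-fold higher level, and it held without any 1 of the 12 libraries. Mttp overlaps the start of Trmt10a and an antisense gene, and whether the counting used strand is not stated. Trmt10a stood at 13.9 to 19.9 CPM in the libraries not labelled for Tet2 and at 16.7 to 20.4 CPM in those that were, and its part in the Mttp values was not tested. Summed with these overlapping genes, the level was 20.3 ± 1.6 CPM in WT, 22.0 ± 2.7 CPM in p300KO, 27.5 ± 3.4 CPM in Tet2KO and 25.9 ± 0.63 CPM in p300KO_Tet2KO (mean ± SD, n = 3), a log2 ratio of 0.34 between Tet2-labelled and other groups. In the sum, p300KO replicate 2 (25.1 CPM) lay above Tet2KO replicate 3 (23.7 CPM), so the ranges overlapped.

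Bank1 differed in another way. It encodes a scaffold of B cell receptor signalling and lies 2.51 Mb from Tet2 (ENSMUSG00000037922.12, chr3:136053363-136326066). Its level was 5.91, 6.20 and 4.80 CPM in WT, 1.12, 2.09 and 3.07 CPM in p300KO, 0.882, 0.865 and 0.930 CPM in Tet2KO, and 0.418, 0.975 and 1.76 CPM in p300KO_Tet2KO. WT stood above every other library, and the p300KO and p300KO_Tet2KO ranges overlapped. The change was -2.66 ± 0.42 in Tet2KO vs WT (adjusted p = 0.0127), and the call was lost without WT replicate 1, WT replicate 2 or Tet2KO replicate 1 (adjusted p up to 0.0844). In p300KO_Tet2KO vs p300KO the change was -0.97 ± 0.42 (adjusted p = 0.461), and averaged over both it was -1.82 ± 0.30 (adjusted p = 0.00726). Markers of B cells differed between the groups too. Cd79a, a chain of the B cell receptor complex, had group means of 14.6 CPM in WT, 2.66 CPM in p300KO, 4.02 CPM in Tet2KO and 3.39 CPM in p300KO_Tet2KO. Ebf1, a transcription factor of the B lineage, had group means of 21.1, 2.77, 10.4 and 1.03 CPM in the same order, and Ms4a1 was near 0 in every group (at most 1.63 CPM in a library). Their part in the Bank1 result was not tested.

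**Figure D1:**
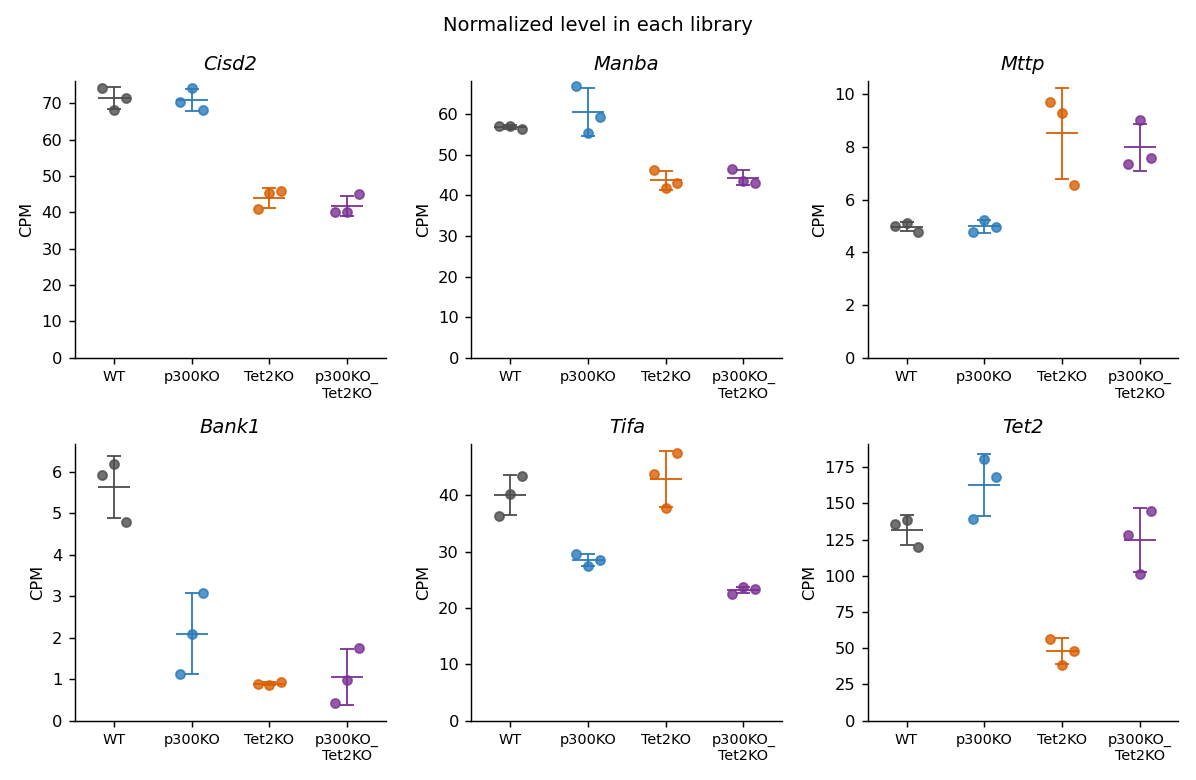
Level of Cisd2, Manba, Mttp, Bank1, Tifa and Tet2 in each of the 12 libraries (CPM, linear axes from 0); dots are libraries, wide bars are group means and error bars are SD (n = 3). Cisd2 and Manba lay lower and Mttp higher in all 6 Tet2-labelled libraries, while Tet2 itself was low in Tet2KO only.

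Counted over the members, few neighbours passed the test. In Tet2KO vs WT, 2 of the 39 tested members were called at an adjusted p under 0.05, Cisd2 and Bank1, both lower, or 5.13% against 0.633% of all tested genes. In p300KO_Tet2KO vs p300KO, 2 of 39 were called, Cisd2 and Manba, both lower, against 0.56% of all genes. In the average of these comparisons, 4 of 39 were called (10.3%, against 1.99% of all genes), with Cisd2, Manba and Bank1 lower and Mttp higher. At an unadjusted p under 0.05 the average counted 14 members (35.9%, against 14.2% of all genes). The median log2 fold change of the 39 was -0.07 in Tet2KO vs WT, -0.05 in p300KO_Tet2KO vs p300KO and -0.10 in the average, beside medians of 0.00, 0.01 and 0.00 over all tested genes. Cisd2 was the 1 member among the 46 genes called in the same direction in both comparisons (0.258% of all genes). These 46 made up 40.7% of the genes called in Tet2KO vs WT and 46% of those called in p300KO_Tet2KO vs p300KO. Of the 46, 9 lie on chromosome 3, which holds 995 of the 17842 tested genes. Chromosome 2, with 1406 tested genes, holds 12 of them. Those 12 include Gm13693, Gm13694, Gm13696, Gm13697 and Gm13698, which lie close together. Their log2 fold changes were identical (5.79 in Tet2KO vs WT and 7.34 in p300KO_Tet2KO vs p300KO). The 12 are therefore not all separate observations, and the chromosomes cannot be ranked by these counts.

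The ranges of the libraries set 3 members apart. Cisd2, Manba and Mttp, 7.69% of the tested members, had no overlap between the 6 Tet2-labelled libraries and the 6 others, beside 1.37% of all tested genes. In single comparisons of 3 against 3 libraries, ranges without overlap were common: 15 members (38.5%, against 21.4% of all genes) in Tet2KO vs WT and 12 members (30.8%, against 14.2% of all genes) in p300KO_Tet2KO vs p300KO. Of the 15, 12 were lower in Tet2KO, among them Pla2g12a, Aimp1, Ppa2, Bdh2, Ppp3ca, Ddit4l, Lamtor3, Tspan5 and Rap1gds1, and of the 12, 8 were lower in p300KO_Tet2KO.

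No member was called in the test of the difference between the Tet2 comparisons. The test of the difference asks whether the change with the Tet2 label is the same with and without p300. It called 0 of the 39 members and 0% of all genes. An unadjusted p under 0.05 was found for 3 members (7.69%) and for 1268 of all genes (7.11%), so the members were near the share of all genes. DESeq2 called 49 genes in this test and no member. The 3 members were Bank1 (difference 1.69 ± 0.59, unadjusted p = 0.0134), the adaptor Tifa (-0.40 ± 0.14, unadjusted p = 0.0149) and Ppa2 (0.31 ± 0.14, unadjusted p = 0.0442), and none passed adjustment (edgeR adjusted p from 0.632 to 0.692). Across the 39 members the log2 fold changes of the 2 comparisons had a Pearson correlation of 0.52 and a Spearman correlation of 0.41, and 25 had the same sign. Over the 35 members not called in the average these were 0.26 and 0.23, with 21 of the same sign. Over all 17842 genes the correlations were 0.34 and 0.21. The comparisons share no library, but the genes are not independent replicates and no test was made.

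Position along the chromosome did not order the changes by closeness to Tet2. All 4 members called in the average lie at higher coordinates than Tet2, where 20 members were tested, and none of the 19 tested members at lower coordinates was called. The nearest tested neighbour is Ppa2, the mitochondrial inorganic pyrophosphatase, at -0.0854 Mb on a scale where lower coordinates are negative. Its level was 35.1, 30.5 and 31.1 CPM in WT, 31.4, 29.1 and 32.0 CPM in p300KO, 22.7, 27.8 and 24.7 CPM in Tet2KO, and 30.3, 28.5 and 30.0 CPM in p300KO_Tet2KO. Ppa2 was thus lower than WT in each Tet2KO library (-0.36 ± 0.10, adjusted p = 0.13) but level with p300KO in p300KO_Tet2KO (-0.06 ± 0.10, adjusted p = 0.925). The next on that side are Ints12, a subunit of the Integrator complex, and Gstcd, which has a glutathione S-transferase domain. They start within the same stretch of DNA and are transcribed in opposite directions.

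Ints12 stood at 23.4, 24.7 and 25.1 CPM in WT, 27.6, 26.5 and 23.4 CPM in p300KO, 25.2, 24.2 and 26.0 CPM in Tet2KO, and 24.9, 21.2 and 25.7 CPM in p300KO_Tet2KO. Gstcd stood at 45.6, 44.3 and 45.1 CPM in WT, 42.3, 43.7 and 43.4 CPM in p300KO, 38.2, 44.7 and 41.3 CPM in Tet2KO, and 47.2, 41.2 and 45.3 CPM in p300KO_Tet2KO. Both overlapped across the Tet2 label, with averaged changes of -0.04 ± 0.07 for Ints12 and -0.04 ± 0.06 for Gstcd. On the other side, the nearest tested members were Cenpe at 1.67 Mb, Bdh2 at 1.74 Mb and Slc9b2 at 1.76 Mb, a run of genes just before Cisd2. Cenpe, the kinetochore motor of dividing cells, overlapped across the Tet2 label, at 100.5, 125 and 150 CPM in WT, 145, 140 and 189 CPM in p300KO, 107, 116 and 163 CPM in Tet2KO, and 125, 98.2 and 135 CPM in p300KO_Tet2KO. Bdh2, a cytosolic hydroxybutyrate dehydrogenase, was low throughout, at 3.09, 2.74 and 2.96 CPM in WT, 1.51, 1.53 and 1.16 CPM in p300KO, 2.47, 2.10 and 1.06 CPM in Tet2KO, and 0.940, 1.79 and 1.72 CPM in p300KO_Tet2KO. WT was above the other libraries, and the change with p300 deletion was -1.05 ± 0.32 (adjusted p = 0.0992). Slc9b2, a sodium and proton exchanger, stood at 1.85, 1.58 and 2.29 CPM in WT, 1.66, 1.37 and 1.66 CPM in p300KO, 2.01, 2.61 and 1.55 CPM in Tet2KO, and 2.77, 2.66 and 3.23 CPM in p300KO_Tet2KO. It was higher in p300KO_Tet2KO than in each library of the other groups, with a change of 0.89 ± 0.25 against p300KO (adjusted p = 0.181).

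Grouped by distance, the 6 tested members within 1 Mb, all at lower coordinates, held no call and had a median averaged log2 fold change of -0.10. The 5 members at 1 to 3 Mb on that side and the 8 beyond 3 Mb had medians of 0.02 and 0.00, again with no call. At higher coordinates the first tested member lies 1.67 Mb away. The 8 members there at 1 to 3 Mb held 3 of the 4 calls (Cisd2, Manba and Bank1) with a median of -0.24, and the 12 beyond 3 Mb held 1 (Mttp) with a median of -0.09. Arhgef38 and Cxxc4, both within 1 Mb of Tet2, could not be tested. Cxxc4 encodes a CXXC zinc finger protein whose gene split from an ancestral Tet2 gene, and it had 26 counts over the 12 libraries, at 0 to 0.209 CPM, while Arhgef38, a guanine nucleotide exchange factor, had 36 counts, at 0 to 0.232 CPM.

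**Figure D2:**
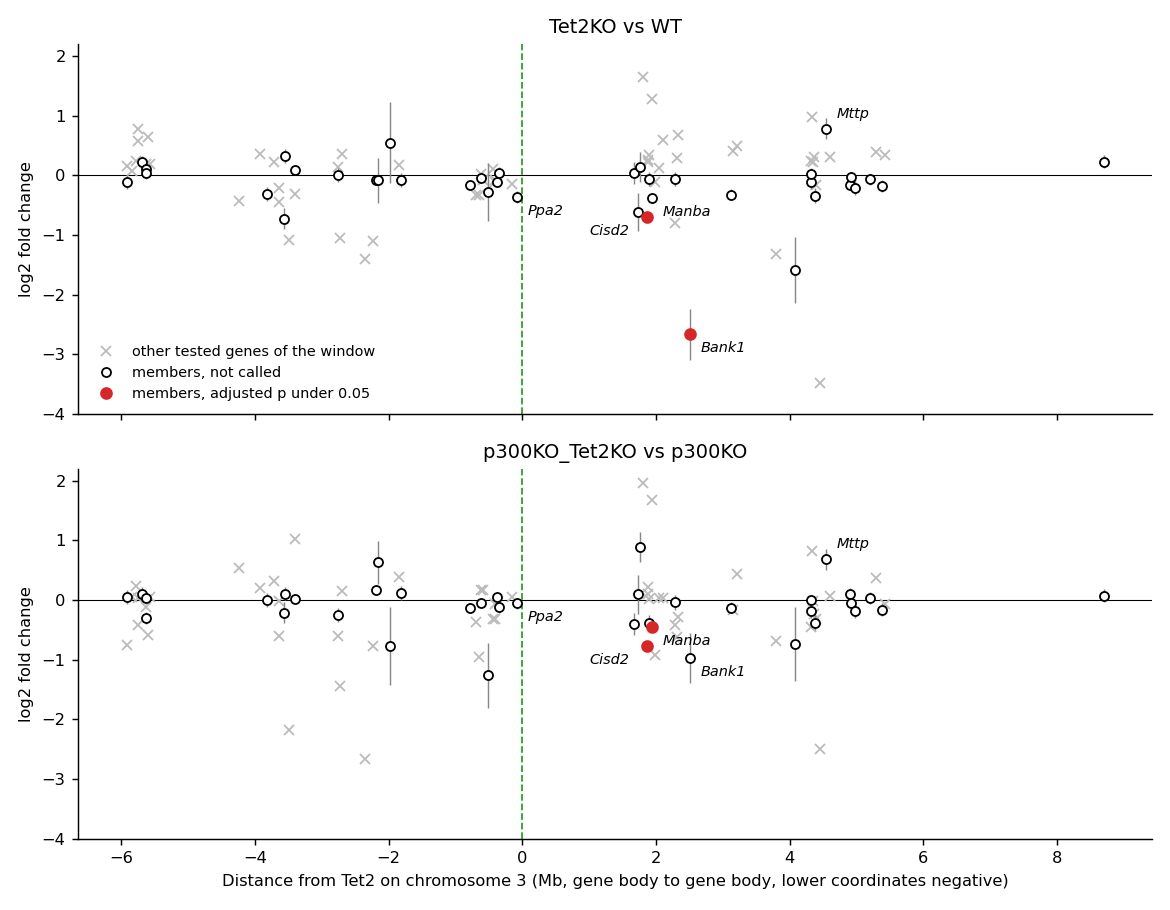
Log2 fold change against distance from Tet2 (Mb, gene body to gene body) for Tet2KO vs WT (top) and p300KO_Tet2KO vs p300KO (bottom); circles are the 39 tested members with SE, red where the adjusted p was under 0.05, and crosses are the other tested genes of the window. Most members lie near 0 on both sides, and Cisd2 is red in both panels at 1.86 Mb.

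By role, the changes did not gather in 1 process. Among the 12 members of lipid and small molecule metabolism, Manba was lower and Mttp higher in the average, and 10 were not called. Pla2g12a, a secreted phospholipase A2, had the lowest log2 fold change of the group in Tet2KO vs WT without being called: it stood at 13.1 ± 2.1 CPM in WT, 12.04 ± 1.6 CPM in p300KO, 7.98 ± 1.9 CPM in Tet2KO and 10.4 ± 0.21 CPM in p300KO_Tet2KO (mean ± SD, n = 3), with a change of -0.72 ± 0.18 (adjusted p = 0.113) and of -0.21 ± 0.18 in p300KO_Tet2KO vs p300KO (adjusted p = 0.782). Elovl6, Hadh, Sgms2, Cyp2u1, Papss1, Adh5, Bdh2, Gstcd and Ppa2 completed the group, with averaged changes between -0.26 and 0.27. Of these Sgms2, a sphingomyelin synthase, varied most between libraries of 1 group (0.741 to 5.19 CPM in WT). Reads of Sgms2 may be shared with 2 similar genes that reach 1 CPM. Summed with them, the level was 73.1, 86.1 and 80.8 CPM in WT, and their part in the Sgms2 values was not tested.

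None of the 6 members of the secretory pathway and membrane traffic was called in the average. Lamtor3, a subunit of the Ragulator complex that anchors mTORC1 signalling at the lysosome, came closest: it stood at 36.0 ± 3.7 CPM in WT, 43.0 ± 6.4 CPM in p300KO, 28.4 ± 2.9 CPM in Tet2KO and 33.1 ± 2.6 CPM in p300KO_Tet2KO (mean ± SD, n = 3). Its averaged change was -0.36 ± 0.09 (adjusted p = 0.0574), with -0.34 ± 0.12 in Tet2KO vs WT and -0.38 ± 0.12 in p300KO_Tet2KO vs p300KO. A processed pseudogene of Lamtor3 on chromosome 7, Gm5900, is 99.5% identical over 375 bases. It stood at 0.0628 to 0.277 CPM in the WT and p300KO libraries and at 4.12 to 6.58 CPM in the Tet2-labelled ones. Summed over both, the level was 36.2 ± 3.8 CPM in WT, 43.2 ± 6.5 CPM in p300KO, 33.0 ± 2.5 CPM in Tet2KO and 38.3 ± 3.6 CPM in p300KO_Tet2KO (mean ± SD, n = 3), a log2 ratio of -0.16 by the Tet2 label, so the lower level of Lamtor3 is uncertain. The others, Ostc, Sec24b, Ap1ar, Tspan5 and Tbck, had averaged changes between -0.13 and 0.05. In the group of translation and protein turnover, none of Eif4e, Aimp1, Metap1, Dnajb14 and Ube2d3 was called, and the averaged changes ran from -0.22 to 0.01. The same held for the chromatin and RNA factors Larp7, Ints12 and H2afz, between -0.15 and -0.03. H2afz, the histone variant H2A.Z, was the most abundant member per length, at 207 CPM per kb of exon, against 26.9 for Larp7, the next.

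Among members of cell death and immune signalling, Bank1 alone was called in the Tet2 comparisons. Casp6, an effector caspase, stood at 15.3 ± 0.37 CPM in WT, 14.2 ± 0.94 CPM in p300KO, 19.1 ± 1.9 CPM in Tet2KO and 15.3 ± 1.3 CPM in p300KO_Tet2KO (mean ± SD, n = 3), and the change in Tet2KO vs WT was 0.32 ± 0.11 (adjusted p = 0.261). Alpk1, the kinase that senses bacterial heptose sugars upstream of Tifa, had an averaged change of 0.16. Ddit4l, an inhibitor of mTORC1 signalling, was barely expressed, with 0.964 ± 0.30 CPM in WT, 0.359 ± 0.015 CPM in p300KO, 0.286 ± 0.23 CPM in Tet2KO and 0.189 ± 0.13 CPM in p300KO_Tet2KO. Its change in Tet2KO vs WT was -1.59 ± 0.56 (adjusted p = 0.254). Npnt, which encodes the matrix protein nephronectin, was equally scarce, with 0.560 ± 0.21 CPM in WT, 0.488 ± 0.17 CPM in p300KO, 0.425 ± 0.25 CPM in Tet2KO and 0.214 ± 0.043 CPM in p300KO_Tet2KO, and changed by -1.26 ± 0.54 in p300KO_Tet2KO vs p300KO (adjusted p = 0.458). The averaged changes of Slc39a8, a zinc and manganese transporter, and of Rap1gds1, a chaperone of small GTPases, were -0.05 and -0.17.

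**Figure D3:**
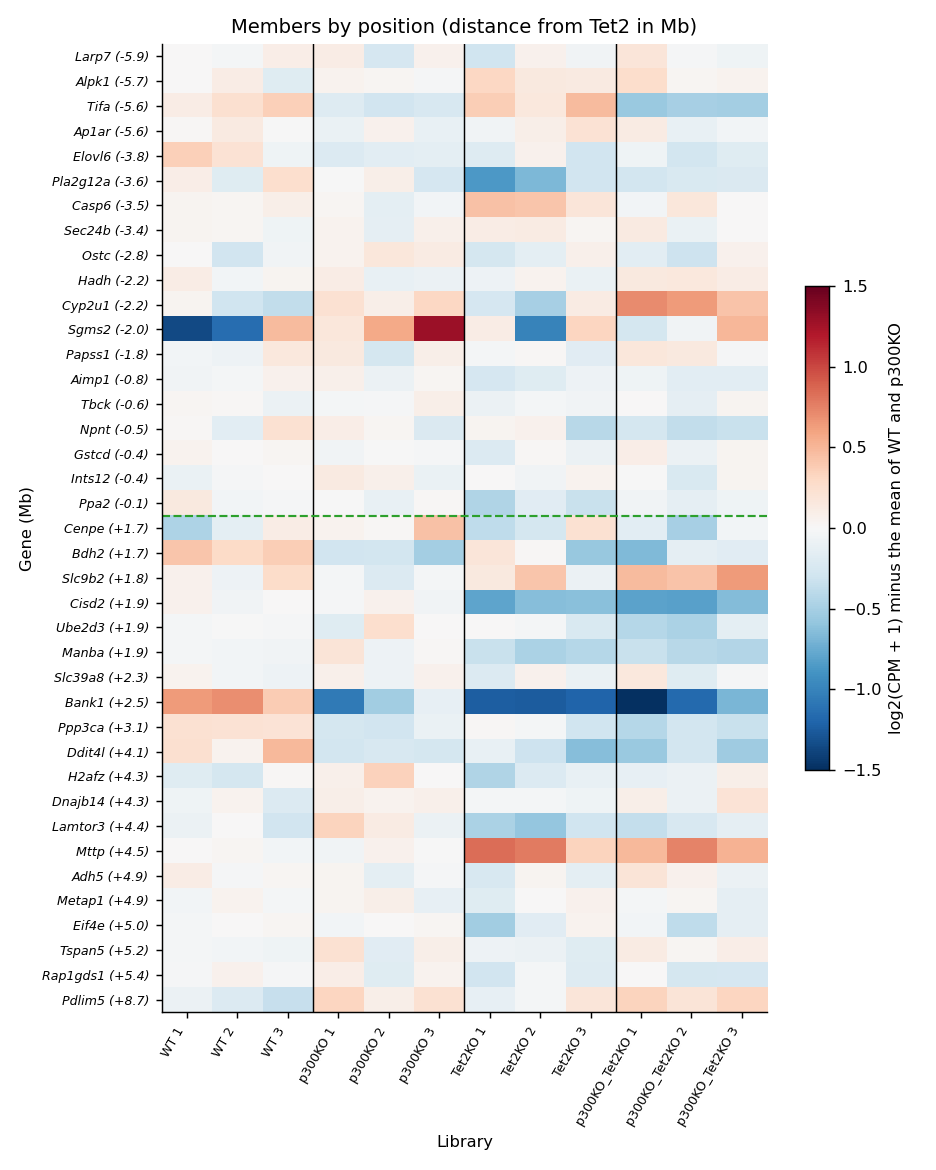
Level of the 39 tested members (rows, by distance from Tet2 in Mb, dashed line at Tet2) in the 12 libraries, as log2(CPM + 1) minus the mean of the 6 WT and p300KO libraries; the color scale saturates at 1.5 either way. The rows of Cisd2 and Manba are blue and that of Mttp is red across the 6 Tet2-labelled libraries, while Tifa is blue in the p300-deleted groups.

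Deletion of p300 touched other members. In p300KO vs WT, 3 of 39 members were called (7.69%, against 3.91% of all genes), Tifa and Ppp3ca lower and Pdlim5 higher. In p300KO_Tet2KO vs Tet2KO, 1 of 39 was called, Tifa (2.56%, against 3.9% of all genes). Tifa encodes an adaptor that oligomerizes to activate TRAF6 and NF-kB signalling and lies at -5.63 Mb (ENSMUSG00000046688.13, chr3:127789805-127832164). Its level was 36.4, 40.2 and 43.5 CPM in WT, 29.5, 27.5 and 28.5 CPM in p300KO, 43.7, 37.7 and 47.5 CPM in Tet2KO, and 22.6, 23.7 and 23.4 CPM in p300KO_Tet2KO. Each p300-deleted library was below each library without the deletion, and p300KO_Tet2KO was the lowest group. Tifa fell by 45.9% in p300KO_Tet2KO vs Tet2KO (-0.89 ± 0.10, adjusted p = 5.64e-04) and by 28.7% in p300KO vs WT (-0.49 ± 0.10, adjusted p = 0.0177). The latter call was lost without any 1 of WT replicates 2 and 3 and p300KO replicates 2 and 3 (adjusted p up to 0.0714).

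Ppp3ca, the catalytic subunit of calcineurin, had the highest values in WT, with 116, 115 and 113 CPM against 81.7, 80.6 and 91.4 CPM in p300KO, 99.2, 96.2 and 79.5 CPM in Tet2KO, and 72.9, 81.0 and 77.8 CPM in p300KO_Tet2KO. Its change was -0.44 ± 0.09 in p300KO vs WT (adjusted p = 0.0187), lost without WT replicate 1 or 2 or p300KO replicate 1 or 2 (adjusted p up to 0.0812), and -0.32 ± 0.09 in Tet2KO vs WT (adjusted p = 0.154). Pdlim5, a PDZ and LIM domain scaffold at the far end of the window, stood at 23.6, 21.8 and 19.6 CPM in WT, 31.8, 27.0 and 29.7 CPM in p300KO, 23.0, 24.6 and 28.7 CPM in Tet2KO, and 32.0, 29.0 and 31.8 CPM in p300KO_Tet2KO. The p300KO libraries were above WT, by 0.44 ± 0.11 (adjusted p = 0.046), and the call was lost without any 1 of the 6 libraries and in 11 of 14 alternatives in all (adjusted p up to 0.151). Cyp2u1, a fatty acid hydroxylase of the cytochrome P450 family, lay just short of the threshold in p300KO_Tet2KO vs Tet2KO. It was at 0.692, 0.423 and 1.196 CPM in Tet2KO and at 2.30, 2.13 and 1.72 CPM in p300KO_Tet2KO, a change of 1.46 ± 0.38 (adjusted p = 0.0504). Reads of Cyp2u1 may be shared with 36 similar genes, 31 of which reach 1 CPM. Together these had means of 12319 CPM in WT, 17699 CPM in p300KO, 14377 CPM in Tet2KO and 17470 CPM in p300KO_Tet2KO. The mean sums were thus higher with p300 deletion as well. However, 1 of these genes alone reached 18917 CPM in a library, while the highest sum in any library was 20479 CPM. The sum can therefore be mostly the level of 1 gene and may say little about the others. The part of these genes in the Cyp2u1 values was not tested.

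The rest of the window was compared with the members. Of the 53 other tested genes in it, 1 is Tet2. Of the remaining 52, 3 were called in the average (5.77%), all lower: Rpl34, Emcn and the long noncoding RNA RP23-209N19.6 (Gm19708). On the remainder of chromosome 3, 31 of 903 were called (3.43%), and off chromosome 3, 314 of 16748 (1.87%). Separation of the 6 Tet2-labelled libraries from the 6 others was seen in 7.69% of these 52 genes (Rpl34, Emcn, RP23-209N19.6 and Ccdc109b, all lower), in 2.77% of the remainder of the chromosome and in 1.25% of genes elsewhere. Called genes of the window outside the members included, with p300 deletion, Lef1, RP24-176P19.3 and RP23-209N19.6 (lower in p300KO vs WT), Dapp1 (higher in p300KO vs WT) and Lef1 (lower in p300KO_Tet2KO vs Tet2KO). With p300 deletion the calls of RP24-176P19.3 and RP23-209N19.6 in p300KO vs WT were lost without any 1 of the 6 libraries (adjusted p up to 0.14 and 0.246). There, Lef1 lost its call without WT replicate 1 or p300KO replicate 3 (up to 0.0521) and Dapp1 without WT replicate 1 (up to 0.0581). In p300KO_Tet2KO vs Tet2KO, Lef1 lost its call without Tet2KO replicate 1 or p300KO_Tet2KO replicate 1 or 3 (up to 0.0695).

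Rpl34, a protein of the large ribosomal subunit at -2.73 Mb, fell in both Tet2 comparisons, by 1.04 on the log2 scale in Tet2KO vs WT (adjusted p = 0.00889) and by 1.45 in p300KO_Tet2KO vs p300KO (adjusted p = 6.11e-04). It stood at 336, 245 and 382 CPM in WT, 360, 468 and 338 CPM in p300KO, 148, 159 and 160 CPM in Tet2KO, and 133, 135 and 159 CPM in p300KO_Tet2KO. Its processed pseudogene Rpl34-ps1 on chromosome 6, 99.4% identical over 354 bases, moved the other way over the same libraries, from 0.590 to 1.62 CPM in WT and p300KO to 132 to 194 CPM in the Tet2-labelled libraries. Summed over Rpl34 and its 8 similar genes, the level was 322 ± 70 CPM in WT, 390 ± 69 CPM in p300KO, 312 ± 11 CPM in Tet2KO and 308 ± 35 CPM in p300KO_Tet2KO (mean ± SD, n = 3), and the Tet2-labelled libraries (267 to 330 CPM) overlapped the others (246 to 469 CPM). The fall of Rpl34 is therefore uncertain, since reads can be assigned to either copy. No similar gene was found for Cisd2, Manba and Bank1, whereas Lamtor3 had a pseudogene of the same pattern and Mttp shares sequence with genes that overlap it. Emcn, an endothelial and stem cell sialomucin at 3.80 Mb, stood at 13.4 to 17.6 CPM in WT, 11.6 to 13.3 CPM in p300KO, 4.34 to 8.48 CPM in Tet2KO and 7.05 to 8.74 CPM in p300KO_Tet2KO (-1.32 in Tet2KO vs WT and -0.68 in p300KO_Tet2KO vs p300KO, with an adjusted p of 0.00375 for their average). The summed stromal and endothelial markers were 134 to 140 CPM in WT, 77.5 to 98.9 CPM in p300KO, 145 to 157 CPM in Tet2KO and 68.4 to 78.3 CPM in p300KO_Tet2KO, almost all of it Pecam1. The other 3 genes of that list were scarce and had lower group means in both Tet2-labelled groups: Cdh5 at 0.360, 0.254, 0.110 and 0.0878 CPM, Cxcl12 at 1.26, 3.74, 0.446 and 0.600 CPM, and Col1a1 at 0.558, 0.600, 0.138 and 0.237 CPM, in the order WT, p300KO, Tet2KO and p300KO_Tet2KO. Their part in the Emcn values was not tested.

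Along the whole chromosome, 39 of 995 tested genes were called in the average (3.92%), more than on any other chromosome but chromosome 4 (4.16%), and 8 of the 39 lie in the window, Tet2 included. In bins of 10 Mb from Tet2, 6 of 56 genes were called at 0 to 10 Mb (10.7%), 1 of 58 at -10 to 0 Mb (1.72%) and 8 of 62 at -20 to -10 Mb (12.9%). No gene was called in the 52 and 19 tested beyond 10 Mb towards the end of the chromosome. Further off, 8 of 175 were called at -40 to -30 Mb and 8 of 144 at -50 to -40 Mb. Calls were therefore unevenly spread along the chromosome. The bins at -20 to -10 Mb and at 0 to 10 Mb had similar shares, Tet2 itself not counted. In the former, Cnn3, RP24-277J22.3 and RP24-277J22.4 lie together, at -12.01, -12.03 and -12.04 Mb. Such small counts cannot rank these bins, and no test was made.

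**Figure D4:**
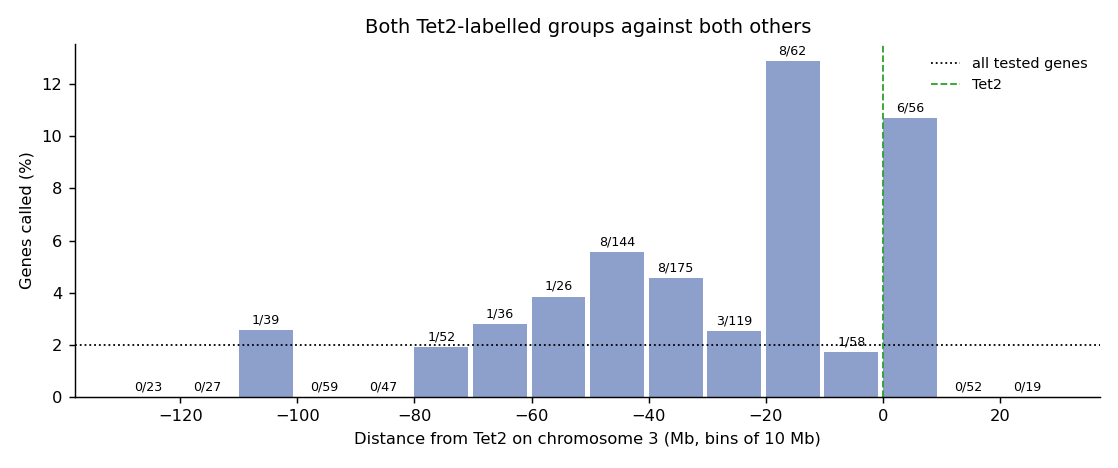
Share of tested genes called in the average of both Tet2 comparisons (%, edgeR adjusted p under 0.05) in bins of 10 Mb from Tet2 along chromosome 3; numbers above the bars are genes called and tested, the dotted line is the share over all tested genes (1.99%) and the dashed line marks Tet2. The tallest bars are those at -20 to -10 Mb and at 0 to 10 Mb.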

How the data were processed

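RNA was sequenced as paired-end reads of 100 bp from ribosomal RNA-depleted libraries. The authors aligned reads with STAR 2.6.0c to mm10 and quantified genes with RSEM 1.3.0 on a Gencode annotation whose release is not given in the sources used here. The deposited table holds RSEM expected counts, not normalized, and these were rounded to whole numbers (83.5% to 87.5% of a library's values already were). Whether strand was used is not stated. The study corrected for a factor from spike-in RNA, and 0 spike-in rows were found, so none was used.

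Genes were filtered with filterByExpr, scaled by TMM and fitted over all 12 libraries with edgeR 4.0.16 quasi-likelihood models (R 4.3.3, limma 3.58.1), with 1 mean per group. The 6 comparisons were Tet2KO vs WT, p300KO_Tet2KO vs p300KO, their average, their difference, p300KO_Tet2KO vs Tet2KO and p300KO vs WT. Tests were two-sided, and genes with a p under 0.05 after Benjamini-Hochberg adjustment over all 17842 tested were called. A single gene tested by exact permutation of 3 against 3 libraries cannot go below p = 0.1. The study gives 3 independent biological replicates per group. CPM values use the TMM library sizes. Positions come from Gencode vM21, which lacks 99 of the tested identifiers, and distances are from gene body to gene body. Similar genes were found with BLAST 2.17.0 (at least 95% identity over 100 bases). Figures were drawn with matplotlib 3.10.9.

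Values are given per library for members called in any comparison and for the 3 tested members nearest Tet2 on each side, and as group values for the 10 members with the smallest p in each Tet2 comparison. The members and lists were chosen with earlier results of these data known. DESeq2 1.42.0, other filters and scalings, a replicate block, a sex covariate, only the libraries compared, library sizes without chromosome 3 and the omission of each library were tried. A called gene of the window and a marker gene are not reported here.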

Additional observations from a re-analysis of the deposited data

How the results depend on the processing

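Cisd2 was called in both Tet2 comparisons and their average under every alternative, and Manba, Mttp and Bank1 in the average under all 19. No result reversed. The count of members called moved as follows. With DESeq2's Wald test it was 6 in Tet2KO vs WT (Manba, Mttp, Pla2g12a and Ppa2 added), 3 in p300KO_Tet2KO vs p300KO (Mttp added), 7 in the average, 2 in p300KO_Tet2KO vs Tet2KO (Cyp2u1 added) and 5 in p300KO vs WT. The count in p300KO_Tet2KO vs p300KO was 1 with a sex covariate and 1 with only the libraries compared (Manba lost). The count in p300KO_Tet2KO vs Tet2KO was 2 without a filter, with 1 CPM in 3 libraries, and with a sex covariate. Leaving out 1 library gave 1 to 4 members in Tet2KO vs WT, 1 to 1 in p300KO_Tet2KO vs p300KO, 4 to 6 in the average, 1 to 3 in p300KO_Tet2KO vs Tet2KO and 0 to 3 in p300KO vs WT. The cause was not tested. Same-numbered libraries correlated from -0.04 to 0.05 in Tet2KO vs WT and from 0.04 to 0.18 in p300KO_Tet2KO vs p300KO, and in no comparison did every library correlate best with its own number. The numbers were therefore not read as pairs, and a fit with a replicate block left the counts at 2, 2, 4, 0, 1 and 3, although in p300KO vs WT Pdlim5 was lost and Bank1 gained. Pdlim5 was lost in p300KO vs WT also with DESeq2 size factors, without a filter, with a sex covariate and with only the libraries compared. Over all genes, the calls were 113 in Tet2KO vs WT (488 with DESeq2, 227 without a filter, 62 with a sex covariate, 58 with only the libraries compared), 100 in p300KO_Tet2KO vs p300KO (351 with DESeq2, 155 without a filter), 355 in the average (798 with DESeq2), 695 in p300KO_Tet2KO vs Tet2KO (1252 with DESeq2, 345 with only the libraries compared) and 698 in p300KO vs WT (1219 with DESeq2). Bank1, Cyp2u1, Ddit4l and Npnt are at low levels, so counting error weighs more on their values.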
